A study of Gallus gallus with 6 samples.

Results

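TSKU, NTN3 and IGF-I are secreted regulators of growth and guidance that the authors listed as differentially expressed between the uteri of laying and non-laying hens. The 3 genes were picked by name from the authors' deposited table of 616 differentially expressed genes, out of 19152 genes in the count table. They entered that table because of their change between these same libraries, so their levels in the 2 groups, and whether edgeR called them, are given below as a description that supports nothing further. The libraries came from Hy-line hens, with 1 uterus per library, and the labels give no treatment. Layers (n = 3) were 35 weeks old and were sampled at 15 to 20 h after ovulation, when the shell of the egg in the uterus is being calcified. Non-layers (n = 3) were 35 to 60 weeks old and had no growing follicles in the ovary. Age and laying status can therefore not be told apart for every hen. The tissue was a piece of unsorted uterus, so that fewer cells of a type and less RNA per cell cannot be told apart either.

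Tsukushi, the product of TSKU, is a secreted protein built of leucine-rich repeats. In the chick embryo it binds bone morphogenetic proteins (BMPs) together with chordin and so limits their signal, and it also binds a Frizzled receptor of the Wnt pathway. Netrins, to which NTN3 belongs, are laminin-related proteins of the extracellular matrix that guide axons and migrating cells through receptors such as DCC and the UNC5 family. Insulin-like growth factor I, encoded by IGF-I, is the main mediator of growth hormone, acts through a receptor tyrosine kinase, and is held in circulation by binding proteins. The uterus of the hen, or shell gland, secretes the calcium carbonate and the organic matrix of the eggshell.

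The identity of each gene was taken from the annotation in the deposited table, on the chicken genome Galgal 5.0. TSKU (ENSGALG00000000761) lies on the minus strand of chromosome 1 from 193483508 to 193498274 and has 1 transcript of 2617 exonic bases. IGF-I (ENSGALG00000012755) lies on the plus strand of chromosome 1 from 55335204 to 55383631 and also has 1 transcript, of 797 exonic bases. NTN3 (ENSGALG00000029072) lies on the minus strand of chromosome 14 from 14038405 to 14063772, with 2 transcripts and 2877 exonic bases. The deposited table names this gene NTN3 but describes it as netrin 1. In the RefSeq gene table of the assembly GRCg7b, NTN3 is a gene of chromosome 14 that has NTN1 among its synonyms, whereas the gene with the symbol NTN1 lies on chromosome 18. The gene counted here is thus the NTN3 locus by its chromosome. All 3 genes are protein coding.

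The libraries held between 14756652 and 20333092 gene counts. Expression is given as CPM, the counts of a gene relative to the summed counts of its library, on the TMM scale, which adjusts for differences in composition between libraries. The list of shell gland and egg white markers held 16 names, in part more than 1 name for the same gene. Of these, 6 are found in the deposited table, and their summed expression was 54400 to 65600 CPM in layers and 155 to 486 CPM in non-layers. The authors had called these 6 on this same contrast, so their difference follows from that choice and is no check of the groups. Most of the sum in layers was 1 gene, MEPE, at 46600, 46500 and 52800 CPM in layers 1, 2 and 3. The 2 groups were compared over 13317 genes with sufficient counts by edgeR's quasi-likelihood test, and a gene was called differentially expressed when it changed 2-fold or more with a p-value below 0.05 after Benjamini-Hochberg adjustment. Of all genes tested, 1.87% were called, 0.901% as higher and 0.969% as lower in layers. Of the 3 genes described here edgeR called 1, TSKU, as higher, and nothing is read from this count, since this contrast had chosen the genes. The groups did not overlap for any of the 3, as was the case for 27.2% of all genes tested. Every layer lay above every non-layer for TSKU and NTN3, as for 12.1% of all genes tested, and below every non-layer for IGF-I, as for 15.1%.

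TSKU was abundant in the layers and moderately expressed in the non-layers. The counts were 9358, 4693 and 5084 in layers 1, 2 and 3, against 377, 397 and 574 in non-layers 1, 2 and 3. This corresponded to 555, 326 and 286 CPM in the layers and to 23.0, 19.6 and 29.9 CPM in the non-layers. Every layer lay far above every non-layer, and the lowest layer was 9.55-fold above the highest non-layer. The layers had a mean of 389 ± 145 CPM and the non-layers one of 24.2 ± 5.28 CPM (SD, n = 3 each). The log2 fold change was 4.01 (standard error 0.33), that is, 16.1-fold, and ranked 23 from the top among the 13317 genes tested. Ordered by the authors' RPKM values, which also take gene length into account, TSKU stood at percentiles 95 to 98.2 of all genes in the layers and 54.9 to 61.8 in the non-layers.

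The layers were not equal in TSKU. Layer 1 held 1.70 times the level of layer 2 (95% interval of the counts 1.64 to 1.76) and 1.94 times that of layer 3 (1.88 to 2.01). These intervals are exact conditional intervals of 2 counts and cover counting error only. The reads carry no molecular identifiers, so repeated reads of 1 molecule could make the intervals too narrow. In the same way, non-layer 3 held 1.53 times the level of non-layer 2 (1.34 to 1.74). Libraries of a group thus differed by more than these intervals cover, yet by far less than the groups did. With 1 library per hen, a difference between hens and one of library preparation cannot be told apart. The coefficient of variation of TSKU was 37.3% among layers and 21.8% among non-layers. Of the 12746 genes tested with a mean of at least 1 CPM, 24.8% varied at least as much among the layers.

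NTN3 showed another pattern, in which layers 2 and 3 were high and layer 1 was close to the non-layers. The counts were 56, 563 and 925 in layers 1, 2 and 3, and 29, 32 and 30 in non-layers 1, 2 and 3. On the CPM scale layers 1, 2 and 3 had 3.32, 39.1 and 52.0, against 1.77, 1.58 and 1.56 for non-layers 1, 2 and 3. On this scale layer 1 was above the non-layers. It was so by 1.88-fold over non-layer 1 (95% interval of the counts 1.18 to 3.05), 2.10-fold over non-layer 2 (1.34 to 3.36) and 2.12-fold over non-layer 3 (1.34 to 3.43). These intervals take the TMM scaling as given and, for a gene chosen by this contrast, are no test of a difference. By RPKM, without TMM scaling, layer 1 had 1.10 against 0.696, 0.607 and 0.652 in non-layers 1, 2 and 3. Layer 2 exceeded layer 1 by 11.8-fold (8.95 to 15.8) and layer 3 exceeded it by 15.7-fold (12 to 20.9), whereas layer 3 exceeded layer 2 by only 1.33-fold (1.19 to 1.48). Most of the distance between the groups in NTN3 therefore came from 2 of the 3 layers. The layers had a mean of 31.5 ± 25.2 CPM and the non-layers one of 1.64 ± 0.114 CPM (SD, n = 3 each).

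The non-layers, with 29 to 32 counts of NTN3, could not be told apart at this depth, their 95% Poisson intervals together spanning 1.06 to 2.54 CPM. Their coefficient of variation was 7.0%, and 79.4% of the 12746 genes with a mean of at least 1 CPM varied at least as much among these hens. At so few counts, this low value does not show how alike the non-layers were. Among the layers the coefficient of variation was 80.1%, a value that only 3.19% of the same genes reached. A range of 15.7-fold or more among the layers was found for 82 of these genes (0.643%). Layer 1 was the lowest layer for 38 of the 82, layer 3 for 31 and layer 2 for 13. Among the named genes of the deposited table, NTN3 and SLC16A6, a member of the monocarboxylate transporter family, were the 2 that reached this range. The log2 fold change of NTN3 was 4.26 (standard error 0.91), or 19.2-fold. It ranked 16 from the top among all genes tested and was not called by edgeR. Without layer 1, it was 4.79 (standard error 0.24) and NTN3 was called, as 1 of 41 genes called among 13533 tested. Leaving out any other library left NTN3 uncalled. Without layer 2, non-layer 1 or non-layer 2, edgeR called 2, 0 and 1 of all genes. Those fits therefore say nothing particular to NTN3. Without layer 3 or non-layer 3, edgeR called 273 and 274 genes.

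**Figure D1:**
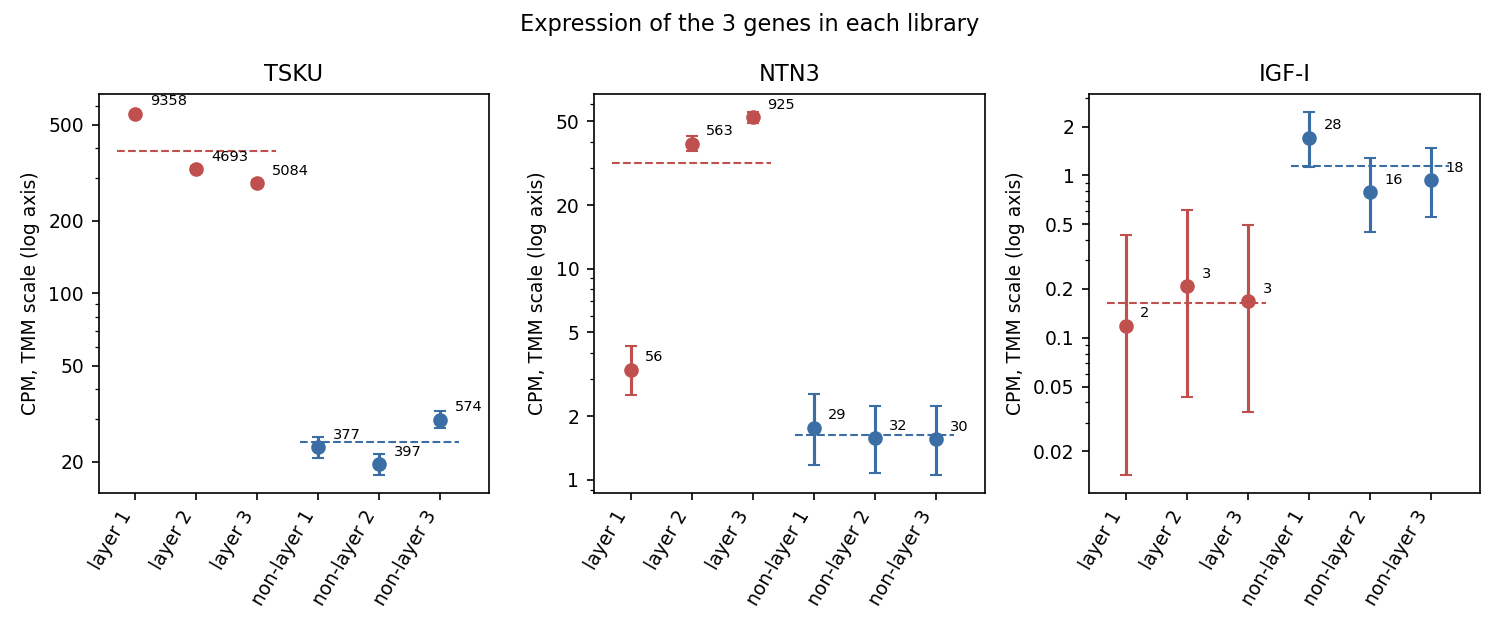
CPM of TSKU, NTN3 and IGF-I on the TMM scale (log axis) in each of the 3 layers (red) and 3 non-layers (blue). Points are libraries with their count beside them, bars are exact 95% Poisson intervals of the count and dashed lines are group means. Layer 1 was the highest layer for TSKU (555 CPM) and the lowest for NTN3 (3.32 CPM), and IGF-I had at most 3 counts in any layer.

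Layer 1 was therefore the highest of the layers for TSKU and the lowest for NTN3. The ratio of the 2 genes was compared per gene length, by RPKM. TSKU exceeded NTN3 by 180-fold in layer 1, by 8.75-fold in layer 2 and by 5.85-fold in layer 3. In non-layers 1, 2 and 3 it did so by 14.0-fold, 13.4-fold and 20.7-fold. The order of the levels was thus the same in every library, with TSKU above NTN3, but the ratio in layers 2 and 3 lay below that of every non-layer and the ratio in layer 1 far above it.

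In the deposited annotation NTN3 is the gene of the 3 with more than 1 transcript. The RefSeq table of GRCg7b lists 11 transcripts for TSKU, 3 for NTN3 and 1 for IGF1. The length by which the deposited RPKM values of NTN3 were scaled was not constant. Counts, RPKM values and the summed gene counts together implied a length of 2825 bases in layer 1 and in all 3 non-layers, of 2749 bases in layer 2 and of 2784 bases in layer 3. The length therefore departed from 2825 bases in the same 2 libraries in which the gene was high, with 563 and 925 counts. Layer 1 had 56 counts and the non-layers had 29 to 32. These are too few to show whether a departure of this size was present there. For TSKU and IGF-I the implied length equalled the exonic length of 2617 and 797 bases in all 6 libraries. A length that varied by more than 1% between libraries was common, found for 65.8% of the 199 genes of the deposited table with more than 1 transcript and at least 10 counts in every library. It was found for 0 of 302 such genes with 1 transcript. Counts were not available here per transcript, so the difference cannot be assigned to either of the transcripts of NTN3.

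IGF-I was the one gene of the 3 that was lower in layers, and it was scarce in both groups. It had 2, 3 and 3 counts in layers 1, 2 and 3, and 28, 16 and 18 counts in non-layers 1, 2 and 3. The levels were 0.119, 0.209 and 0.169 CPM in the layers, with 3 counts, the limit taken for detection, corresponding to 0.169 to 0.209 CPM there. In the non-layers they were 1.71, 0.789 and 0.939 CPM. All layers lay at or under the detection limit and every non-layer above it, so that the groups did not overlap. The layers had a mean of 0.165 ± 0.0451 CPM and the non-layers one of 1.14 ± 0.493 CPM (SD, n = 3 each).

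Summed over the hens of a group, IGF-I had 8 counts in layers and 62 in non-layers, which is 6.80-fold more in non-layers after scaling (95% interval of the counts 3.25 to 16.5). This interval covers counting error only and, for a gene chosen by this difference, is no test of it. The log2 fold change by edgeR was -2.74 (standard error 0.54), and IGF-I was not called. The gene passed the filter on low counts through the non-layers alone, and a gene that does so has to differ between the groups. Non-layer 1 was the highest non-layer, at 2.17 times the level of non-layer 2 (95% interval of the counts 1.13 to 4.28) and 1.82 times that of non-layer 3 (0.972 to 3.49). The latter interval includes 1, so that at this depth these 2 hens were not distinguishable in IGF-I. The layers could not be ordered either, as their counts differed by 1 at most.

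Per gene length, NTN3 lay below IGF-I in every non-layer, at 0.292, 0.564 and 0.470 times its RPKM in non-layers 1, 2 and 3. In counts the order was the reverse, with 29, 32 and 30 for NTN3 and 28, 16 and 18 for IGF-I. The order by RPKM thus rests on the lengths used, 2825 and 797 bases. These ratios rest on few counts and are given without an interval. In layers 1, 2 and 3 NTN3 had 1.10, 12.2 and 16.3 RPKM. The RPKM of IGF-I there was 0.139, 0.225 and 0.185, resting on 2, 3 and 3 counts, and no ratio is given. TSKU was the most abundant of the 3 genes in every library, with 8.12 to 13.5 RPKM in non-layers and 95.5 to 198 RPKM in layers. IGF-I, at 1.07 to 2.38 RPKM in non-layers and 0.139 to 0.225 RPKM in layers, stood at percentiles 35.0 to 40.2 and 24.9 to 27.8 of all genes. NTN3 stood at percentiles 30.6 to 31.7 in the non-layers and at 36.9, 66.8 and 72.3 in layers 1, 2 and 3. These percentiles, and those of TSKU above, are over all 19152 genes, of which 15434 to 15721 per library had an RPKM above 0. Among the genes with an RPKM above 0 alone, the percentiles would be lower.

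The genes most similar to each of the 3 were sought among the 513 other tested genes that carry a name in the deposited table. Likeness was measured as the root mean square difference between the log2(CPM + 1) values of 2 genes over the 6 libraries, each centred on its own mean. For TSKU, whose own values had a root mean square of 1.99 around their mean, the nearest gene was PRKG2, a cGMP-dependent protein kinase, at 0.289. It had 31.8, 27.1 and 17.2 CPM in layers 1, 2 and 3 against 0.915, 1.13 and 1.88 CPM in the non-layers, and was highest in layer 1 as TSKU was. TC2N (0.413), GADL1 (0.503), the sialidase NEU4 (0.570) and the kinase SGK1 (0.672) followed. SGK1 differed from TSKU in that layer 1, at 718 CPM, was its lowest layer, with 1580 and 1420 CPM in layers 2 and 3. All genes compared had been called by the authors on this contrast. Genes with a similarly large rise in layers therefore come nearest to TSKU by construction.

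No named gene followed NTN3 as closely. The nearest was LOC427491, described as similar to a C2 calcium-dependent domain protein, at 0.625 against a root mean square of 1.88 for NTN3 itself. It had 15.6, 46.5 and 56.5 CPM in layers 1, 2 and 3 and 3.13 to 5.42 CPM in the non-layers. SLC16A6 (0.717) was lowest in layer 1 too, where its 2.73 CPM lay within the 2.19 to 4.39 CPM of the non-layers, and reached 15.2 and 58.8 CPM in layers 2 and 3. The antibacterial enzyme lysozyme, LYZ (0.856), the protease inhibitor ovostatin, OVST (0.872), and SGK1 (0.881) came next. Each of these 5 genes had its lowest layer value in layer 1, which follows largely from their choice by likeness to NTN3.

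For IGF-I the nearest genes were LOC770429 (0.128), GPR20 (0.178), FANCB (0.183), GART (0.194) and MXD3 (0.201), against a root mean square of 0.467 for IGF-I. FANCB belongs to the Fanconi anaemia DNA repair pathway and GART is an enzyme of purine synthesis. GPR20, an orphan G protein-coupled receptor, had 2.55 to 3.88 CPM in layers and 7.39 to 9.82 CPM in non-layers. At the low level of IGF-I the added 1 CPM compresses its profile, and genes with a small change or a low level come nearest by construction.

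**Figure D2:**
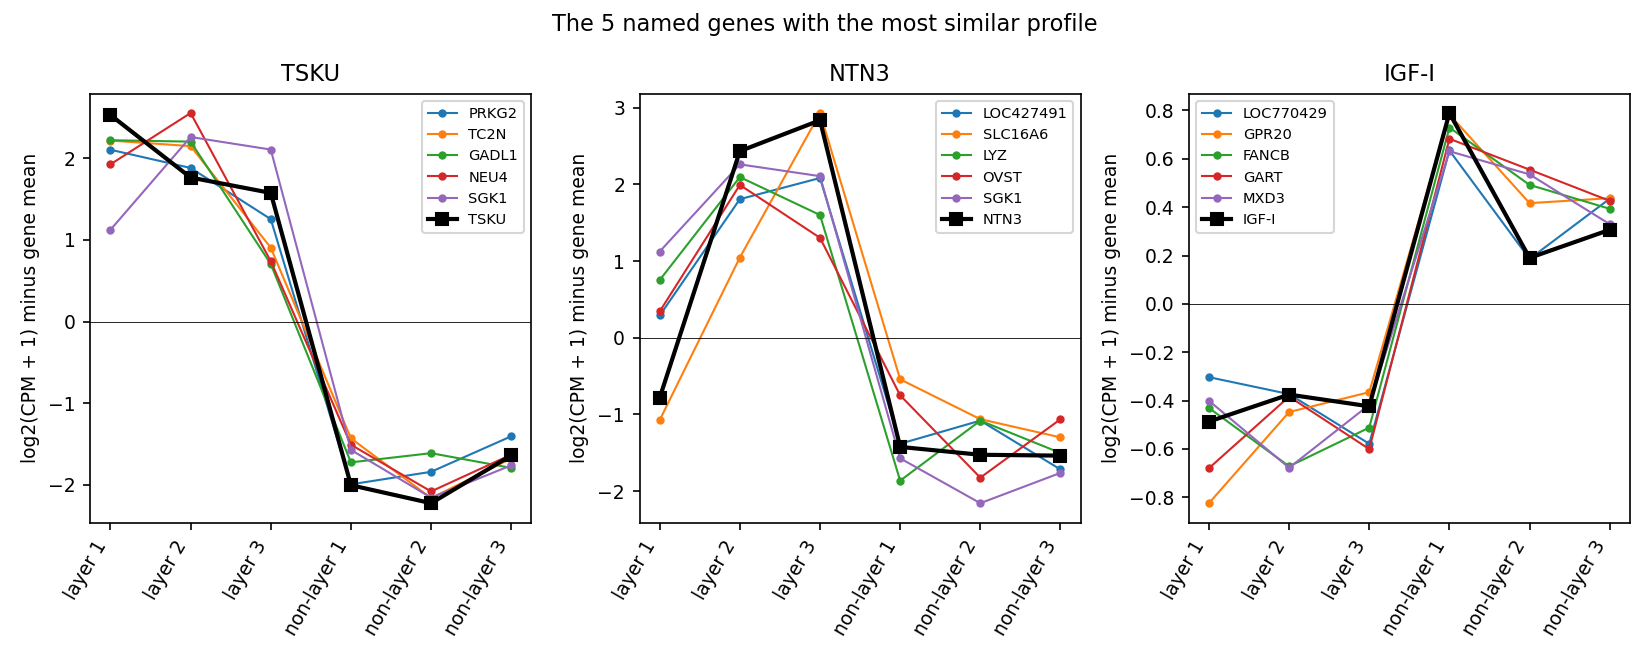
Centred log2(CPM + 1) of TSKU, NTN3 and IGF-I (black) and of the 5 named genes with the smallest root mean square difference to each (coloured) in the 3 layers and 3 non-layers. PRKG2 lies closest to TSKU, at 0.289, and the 5 genes near NTN3, chosen for that likeness, have their lowest layer value in layer 1.

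Lists of related genes were written from general knowledge, but names are at hand only for genes in the authors' table, so each count below covers genes that were already called differentially expressed and the share that rose or fell says nothing of the full list. The medians given with them follow from that choice, and nothing is read from them. On the side of TSKU, 9 of 38 secreted modulators of BMP, activin and Wnt signalling and their receptors had a name. Of these, 5 had higher and 4 lower expression in layers, edgeR called 1 of each, and the median log2 fold change was 1.99, against 0.01 for all genes tested. Chordin (CHRD), the BMP antagonist that works with tsukushi in the chick embryo, had 267, 195 and 62.6 CPM in layers 1, 2 and 3 and 46.1, 34.0 and 29.9 CPM in non-layers 1, 2 and 3. As for TSKU, layer 1 was the highest and layer 3 the lowest of the layers. CHRDL2, GDF10, TLL1, BMPER and FZD10 of this list had the same order of layers, and FST, LGR5 and GDF2 did not. The share of all genes with this order was not determined, so nothing is read from the likeness. Every layer lay above every non-layer for CHRD, as for 12.1% of all genes tested. The log2 fold change of CHRD was 2.25 (standard error 0.49) and was not called.

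Follistatin (FST), which binds and neutralises activin, was called with a log2 fold change of 2.36, as its mean rose to 50.3 ± 9.88 CPM in the layers from 9.76 ± 2.41 CPM (SD, n = 3 each). LGR5, a receptor of the R-spondins that amplify Wnt signals, was called in the other direction with a log2 fold change of -2.27. Its mean was 485 ± 15.4 CPM among non-layers and 101 ± 43.7 CPM among layers. The remaining named genes were not called. CHRDL2, a relative of chordin, and the BMP family ligands GDF10 and GDF2 had log2 fold changes of 2.21, 1.99 and 2.04, and the protease TLL1 and the BMP-binding protein BMPER had -1.44 and -2.15. Layer 1 was the highest layer for 7 of the 9 named genes, whether their values were higher or lower in layers than in non-layers. The share of all genes tested that were highest in layer 1 was not determined, so nothing is read from this count. TSKU itself was the 1 named gene of 17 small leucine-rich proteoglycans and their kin.

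Of 22 netrins and guidance receptors, NTN3 and ROBO3 had a name, and edgeR called neither. ROBO3, a receptor of the Roundabout family of axon guidance, had values of 0.237, 0.348 and 0.393 CPM in layers 1, 2 and 3 against 1.59, 0.641 and 4.22 CPM in non-layers 1, 2 and 3, which gave a log2 fold change of -2.69 with a standard error of 0.75. Like IGF-I, ROBO3 passed the filter on low counts through the non-layers alone, so nothing is read from its direction. The receptors DCC, NEO1 and UNC5A to UNC5D were not analysed here, as they carry no name in the files.

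The list of the IGF axis held 26 names, with IGF1 and IGF-I as names of 1 gene. Of these, IGF-I, STC2, GRB10 and FOXO3 were named in the deposited table. GRB10, an adaptor that binds the IGF-I and insulin receptors and dampens their signal, had 70.0, 58.5 and 42.4 CPM in layers 1, 2 and 3 against 26.3, 25.5 and 27.2 CPM in the non-layers. It was the 1 gene of the 4 that edgeR called, with a log2 fold change of 1.11. FOXO3, a transcription factor that insulin and IGF-I signalling keeps out of the nucleus, averaged 146 ± 72.6 CPM in the layers against 54.2 ± 4.37 CPM. Its log2 fold change of 1.43 was not called. STC2, which in human inhibits the proteases that free IGF from its binding proteins, averaged 3.64 ± 1.47 CPM against 1.07 ± 0.386 CPM, and its log2 fold change of 1.76 was not called either. The values of these 3 genes were higher in layers and those of IGF-I lower. All 4 had been called by the authors on this contrast, and IGF-I passed the filter on low counts through the non-layers alone. Nothing is therefore read from this difference in direction. The median of the 4 log2 fold changes was 1.27, against 0.01 for all genes tested.

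Other secreted growth factors with a name were 4 of 29 names listed, which hold SDF1 and CXCL12, names of 1 gene. Fibroblast growth factor 1 (FGF1) was called with a log2 fold change of 3.98, close in size to that of TSKU, and averaged 97.4 ± 65.5 CPM in the layers against 6.15 ± 3.10 CPM. In contrast to TSKU it was lowest in layer 1, at 47.8 CPM, and highest in layer 3, at 172 CPM. The chemokine SDF1, also known as CXCL12, was called with a log2 fold change of -2.0 and averaged 27.1 ± 5.91 CPM in the layers against 108 ± 3.66 CPM. Amphiregulin (AREG) and angiopoietin 1 (ANGPT1) had log2 fold changes of 2.79 and -1.60 and were not called. The median of these 4 was 0.59.

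**Figure D3:**
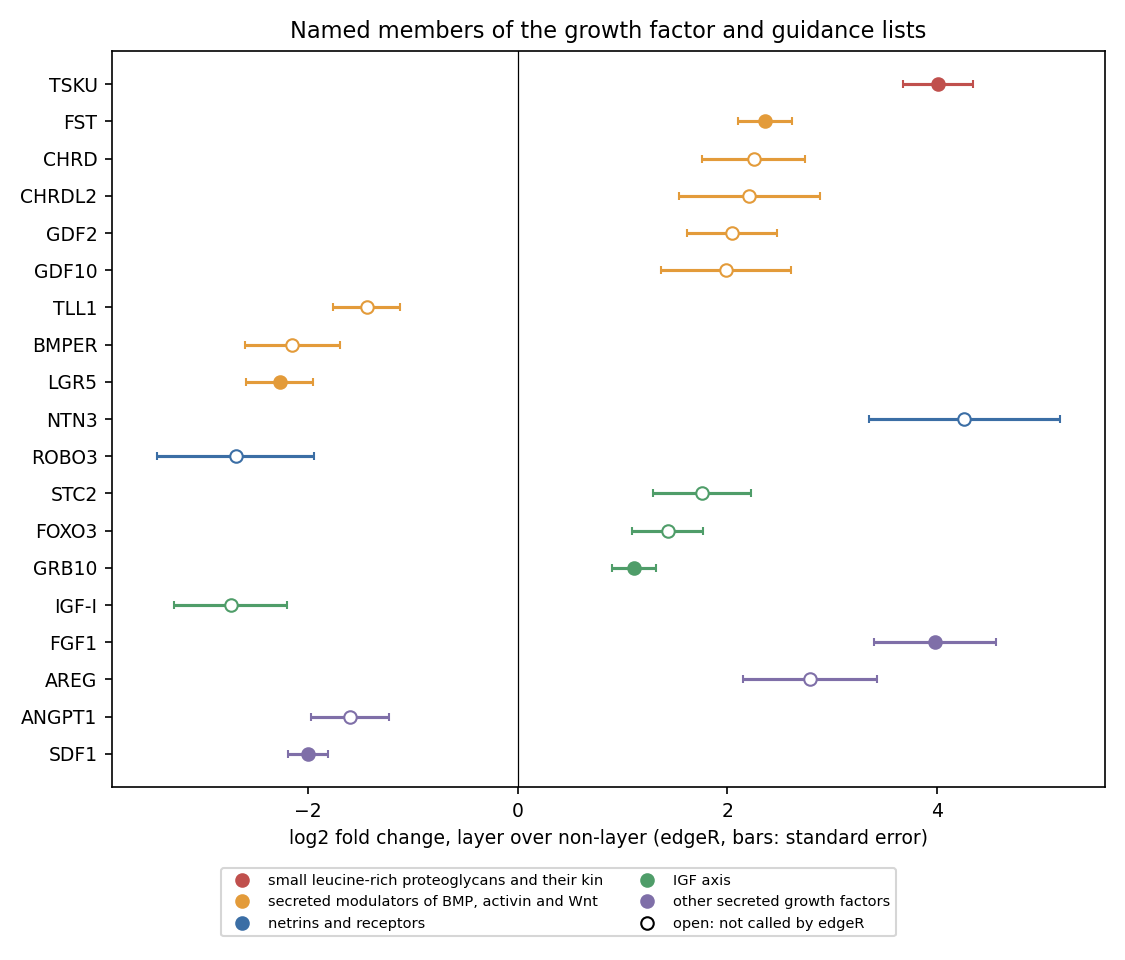
Log2 fold change of layers over non-layers by edgeR, with its standard error, for the named members of 5 gene lists, of which the 8 with the highest mean level are drawn where a list has more. Filled points were called by edgeR and open points were not. TSKU (4.01) and NTN3 (4.26) lie farthest to the right, and IGF-I (-2.74) is below 0. All genes drawn had been called by the authors on this contrast, so nothing is read from their directions.

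Values of other cell types' markers are given beside these genes. Of 10 ciliated cell markers, 6 had a name, and their sum was 96.0 to 153 CPM in layers and 266 to 359 CPM in non-layers. All 6 had negative log2 fold changes, and edgeR called 1, ZMYND10, a factor of ciliary motor assembly, at 25.4 CPM in layers on average against 57.3 CPM. Layer 1 was the highest layer for 5 of the 6, and nothing is read from this count either. Of 12 immune cell markers, 5 had a name, and their sum was 235 to 302 CPM in layers and 325 to 479 CPM in non-layers. Of these 5, edgeR called IRF8, a transcription factor of myeloid cells, as lower, with means of 94.0 CPM among layers against 208 CPM. It called the gene listed as BLNK, which the deposited table describes as SH2 domain containing 6, as higher, with means of 116 CPM against 39.1 CPM. CTSK, CD3D and ZAP70 had log2 fold changes of -1.42, -1.5 and -1.46 and were not called. Of the stromal and smooth muscle markers, 0 of 12 and 0 of 10 had a name, and of 7 red blood cell markers 1 had, HBBA, with 58.3 to 386 CPM in layers and 44.1 to 54.3 CPM in non-layers. HBBA had 82.2, 58.3 and 386 CPM in layers 1, 2 and 3, was highest in layer 3, as NTN3 was, and was not called. The part of these cell types in the levels of TSKU, NTN3 and IGF-I was not tested.

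The surroundings of the 3 genes were read from the deposited coordinates on Galgal 5.0, which cover called genes only. The nearest such gene to IGF-I was PARPBP, a regulator of homologous recombination, on the minus strand of chromosome 1 from 55424000 to 55472057. It begins 40369 bases beyond the end of IGF-I, so that the 3′ ends of the 2 genes face each other. PARPBP had 0.356, 0.556 and 0.281 CPM in layers 1, 2 and 3 against 3.17, 4.29 and 1.41 CPM in non-layers 1, 2 and 3. This gave a log2 fold change of -2.89. Like IGF-I, PARPBP had been called by the authors on this contrast and passed the filter on low counts through the non-layers alone. Nothing is read from its direction. In the RefSeq table of GRCg7b, PARPBP likewise follows IGF1 directly, and an uncharacterised long non-coding gene overlaps IGF1. The library kit marks the strand, but the strand setting of the counting is not given in the sources used here, and whether reads of the overlap were counted on IGF-I was not tested. No RefSeq gene overlaps TSKU or NTN3. The nearest called genes lay 958841 bases from TSKU (CCKBR, log2 fold change -4.57) and 424282 bases from NTN3 (RAB40C, log2 fold change 1.24). These neighbours too had been called by the authors on this contrast, so nothing is read from their directions either.

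The direction of all 3 genes held under each of the alternatives in which they could be fitted, 16 for TSKU and NTN3 and 15 for IGF-I. Nothing is read from this, since the genes were chosen by this contrast. Their groups did not overlap, so refits of the same libraries could hardly reverse the direction. The log2 fold change ranged from 3.50 to 4.19 for TSKU, from 2.25 to 4.79 for NTN3 and from -3.08 to -1.11 for IGF-I. The values of 2.25 and -1.11 came from limma on log2(RPKM + 1). The added 1 exceeded the RPKM of NTN3 in non-layers and of IGF-I in layers, which narrows the difference. With 0.1 added instead, they were 3.06 and -2.54. TSKU was called in 13 of the 16, NTN3 in 3 of 16 and IGF-I in 5 of 15. DESeq2's Wald test, with the tool that the authors used to find these genes, called all 3. It called 5.56% of the 16831 genes with at least 1 count, a larger set than the 13317 tested with edgeR. Of the 12552 genes that passed its filter, limma on log2(RPKM + 1) called 4.99%, with TSKU and IGF-I but not NTN3 among them. The 3 fits in which TSKU was not called were those without layer 2, non-layer 1 or non-layer 2, in which its log2 fold change was 4.12, 3.97 and 3.88. In these fits edgeR called 2, 0 and 1 of all genes, with 2428, 1704 and 2061 genes at an unadjusted p under 0.05.

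**Figure D4:**
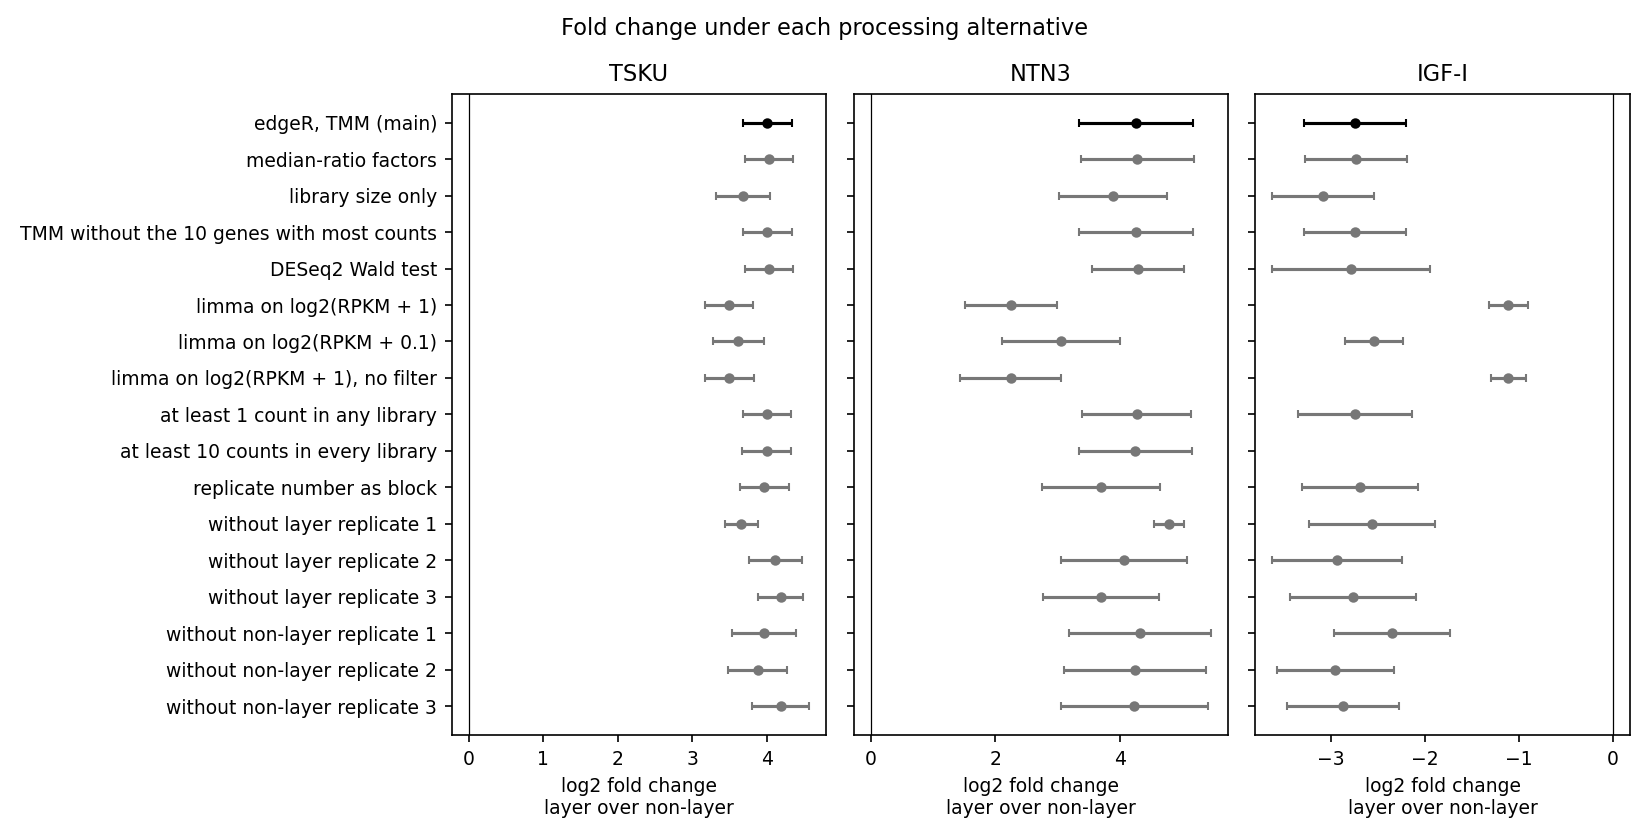
Log2 fold change of layers over non-layers (points) with its standard error (bars) for TSKU, NTN3 and IGF-I with TMM, all libraries and edgeR (black) and under each alternative (grey). IGF-I has no value with at least 10 counts required in every library. NTN3 is at 2.25 with limma on log2(RPKM + 1) and at 4.79 without layer 1, and all values of TSKU lie between 3.50 and 4.19.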

How the data were processed

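Poly-A RNA of 6 uteri was sequenced as single-end reads from a stranded kit. The authors trimmed and filtered reads with Prinseq and mapped them in Array Studio against Galgal 5.0. For each Ensembl gene the authors deposited an estimated count, not normalized, and 91.46% of these were exactly whole, with no tolerance. The gene counter and annotation release are not given in the sources used here. The authors also deposited RPKM values, which for genes with 1 transcript equal the count per exonic length and summed gene counts. A further table holds DESeq2 fold changes, p-values, q-values and group means for 616 genes, of which names, positions and exon lengths were used and the comparison columns were not. Names of other genes were not at hand, because 0 genes of the RefSeq table carry an Ensembl identifier.

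Samples were grouped by laying status in their titles. Counts were rounded and tested with edgeR 4.0.16 (TMM, filterByExpr, quasi-likelihood, no covariates) in R 4.3.3, and adjusted over 13317 genes. Standard errors were derived from the log2 fold change and F. Alternatives were other scalings and filters, DESeq2 1.42.0, limma 3.58.1 on log2 RPKM with a pseudocount of 1 or 0.1 (RPKM of at least 1 in 3 libraries, or no filter), a replicate block and leaving out each library. The tests were checked on simulated data, where edgeR recovered 7 of 78 genes changed 2-fold, 42 of 59 changed 4-fold and 60 of 63 changed 8-fold, with 5 false among its 114 calls over 13174 genes. The changed genes had a mean above 1 CPM, so these shares do not cover IGF-I, with a mean of 0.655 CPM. Intervals used scipy 1.17.1 at 95% confidence. With 3 libraries a group, a two-sided exact permutation p cannot go below 0.1, and whether p-values cover more than these hens is not known. No 2 libraries of a group agreed within sampling noise (chi-square per gene of at least 13.4).

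The 3 genes and the gene lists were chosen with earlier results of these data known. Named were the 3 genes, up to 8 named genes per list by mean level, the 5 most similar named genes and the nearest called genes. Sequences are not printed, and no test of a list was run.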

Additional observations from a re-analysis of the deposited data

How the results depend on the processing

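The direction of TSKU, NTN3 and IGF-I did not change under any alternative, which their choice by this contrast had largely fixed beforehand. With library size only, NTN3 and IGF-I were called, at log2 fold changes of 3.89 and -3.08, as were 781 genes, of which 13.2% were higher in layers, against 249 and 48.2% with TMM; the median of all genes then moved from 0.01 to -0.33. With the DESeq2 Wald test, 935 genes were called, NTN3 (4.29) and IGF-I (-2.78) among them. With limma on log2(RPKM + 1), on log2(RPKM + 0.1) and on log2(RPKM + 1) without a filter, 626, 664 and 434 genes were called, of which 13.9%, 11.6% and 12.9% were higher in layers. IGF-I was called in these 3 fits, at -1.11, -2.54 and -1.11, and NTN3 was not. With limma on log2(RPKM + 1) and the filter, the median of all genes was -0.3, so genes in general lay lower in layers there too. IGF-I could not be fitted with at least 10 counts in every library.

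When 1 library was left out at a time, the log2 fold changes ranged from 3.66 to 4.19 for TSKU, from 3.70 to 4.79 for NTN3 and from -2.95 to -2.35 for IGF-I, and the number of genes called from 0 to 274. The labels do not say whether the replicate numbers pair hens. The deviations of same-numbered libraries correlated at -0.18, 0.11 and -0.08, which cannot settle it, as each value rests on 1 layer and 1 non-layer. With the replicate number as a block, edgeR called 21 genes, and the log2 fold changes were 3.97 for TSKU, which was called, 3.70 for NTN3 and -2.69 for IGF-I. The cause of these changes was not tested. Depth limits IGF-I most, whose layer counts of 2, 3 and 3 do not separate these hens.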
